A study of Homo sapiens with 6 samples.

Results

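The 7 genes described here encode the Dishevelled proteins (DVL1, DVL2 and DVL3), the DAAM formins (DAAM1 and DAAM2) and the Dishevelled-binding DACT proteins (DACT1 and DACT3). They were taken by their symbols out of 57445 genes in the table. The rule uses no measured value, but it was written with earlier results of these data known. All were measured in MDA-MB231 cells, a line of triple-negative breast cancer, in which a lentiviral pGIPZ vector selected with puromycin expressed either a short hairpin RNA against Ror1 (shRor1, 3 libraries) or no Ror1 hairpin (shCTL, 3 libraries). The sample labels call the control an empty vector, whereas the methods of the study describe a non-silencing hairpin. The headers of the control columns also carry the word DMSO, which those of the shRor1 columns do not, so a solvent difference and the hairpin cannot be told apart. The comparison asks whether the mRNA of these cytoplasmic parts of the Wnt pathway moved when the Wnt5a receptor Ror1 was targeted. Nothing in the labels says that the libraries of a group came from separate cultures, so p-values measure only the spread between these libraries.

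Dishevelled proteins are the cytoplasmic hubs of Wnt signaling. They receive the signal from Frizzled and co-receptors of the Ror family and pass it either to β-catenin or, without β-catenin, to small GTPases and the cytoskeleton. DAAM formins bind Dishevelled and assemble actin filaments in this second branch, which is known for its part in cell polarity and in the invasion of breast cancer cells. DACT proteins bind Dishevelled as well and can lower its amount or activity.

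Values are TPM, transcript abundances corrected for transcript length and scaled to a fixed total per library, which can be compared between genes. The targeted gene itself, ROR1, was at 15.42, 13.49 and 20.56 TPM in the shCTL libraries and at 9.34, 11.93 and 14.85 TPM in the shRor1 libraries. The groups overlapped, and the log2 fold change of -0.43 ± 0.20 (SE) had an unadjusted p of 0.0650 and an adjusted p of 0.984 (limma, Benjamini-Hochberg). The paper presents the knockdown of Ror1 at the protein level, by western blot, which TPM does not measure. With edgeR, a count model, the paper reported AGR2 and an uncharacterized gene as differentially expressed between these groups. A rank-based test in the paper also found gene sets of non-canonical Wnt signaling and of inhibition of canonical Wnt signaling enriched. Its set of canonical Wnt signaling was not significant. By western blot, the paper reported lower RhoA and JNK phosphorylation in the knockdown cells. Of the 16554 genes tested, 0 passed an adjusted p of 0.05 by limma, which is a background of 0.0%, and 472 (2.85%) had an unadjusted p under 0.05 (2.31% higher and 0.544% lower in shRor1). The higher genes were 80.9% of these 472, but 53.9% of such genes under quantile normalization and 58.5% under median ratio scaling. The third library of each group stood apart from the other 4 along the leading component of the residuals (0.55 in shCTL and 0.60 in shRor1, against -0.34 to -0.21 in the rest). The summed level of 8 mesenchymal and basal markers, among them VIM and CD44, was 4470 to 4713 TPM in shCTL and 4508 to 4936 TPM in shRor1, while the hormone receptor genes ESR1 and PGR stayed at or below 0.21 TPM and 0.01 TPM. The 8 luminal markers summed to 28.32 to 32.73 TPM in shCTL and 28.19 to 40.47 TPM in shRor1. The highest sum was that of the second shRor1 library, where TFF1 was at 15.26 TPM, against 2.05 to 6.14 TPM in the other libraries. CDH1 was the single one of the 6 tested luminal markers whose groups did not overlap (16.7%, beside 7.78% of all tested genes). It was at 0.8 to 1.22 TPM in shCTL and 1.36 to 1.47 TPM in shRor1 (unadjusted p = 0.0850 by limma).

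A difference between shRor1 and shCTL cells was detected for 0 of the 7 genes. Of the 5 that reached at least 1 TPM in at least 3 libraries, and could thus be tested, 0 passed an adjusted p of 0.05 in limma and 0 had an unadjusted p under 0.05. In all 7 the libraries of the 2 groups overlapped, whereas 7.78% of all tested genes had no overlap (6.48% higher and 1.3% lower in shRor1). DAAM2 and DACT1 stayed below 1 TPM in every library and were compared by the exact permutation test, which cannot go below p = 0.1 with 3 against 3 libraries. With no filter, limma gave them unadjusted p-values of 0.944 and 0.991. The measurement comes from bulk RNA, in which fewer cells of a kind and less RNA per cell cannot be told apart.

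**Figure D1:**
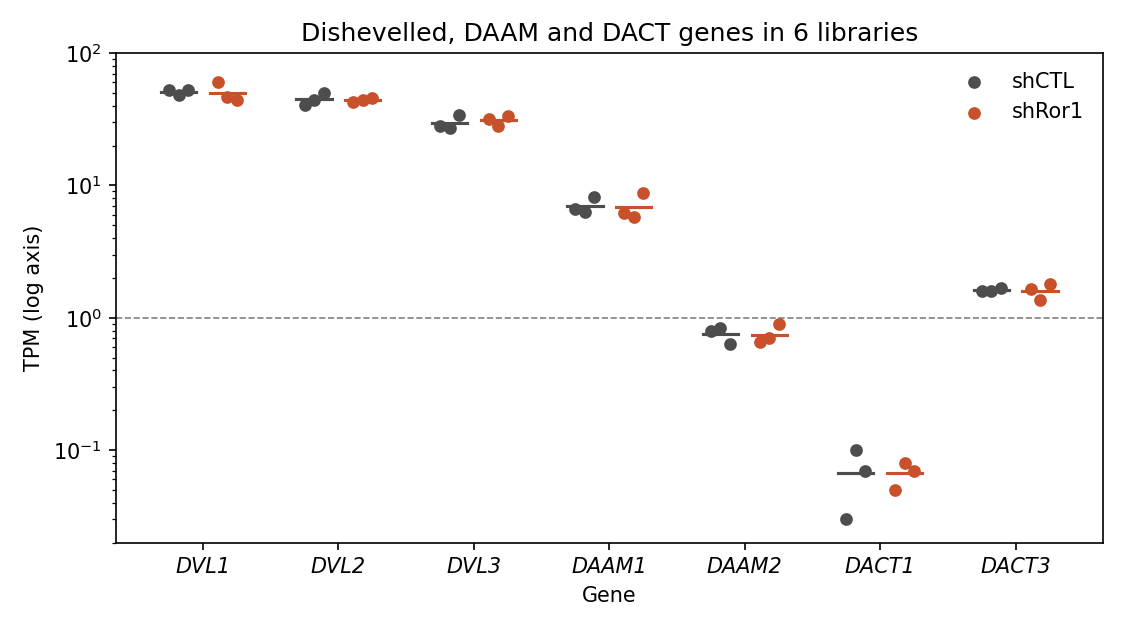
TPM of each gene on a log axis, with 1 point per library and a bar at the mean of each group of 3 (shCTL dark, shRor1 orange), and a dashed line at the filter of 1 TPM. The Dishevelled genes lie between 27.28 and 60.16 TPM, DAAM2 and DACT1 lie below the line, and the groups overlap for every gene.

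The genes that carry the Dishevelled signal are shown first, by the 250 bases in front of their RefSeq start sites. The 3 paralogs lay between 27.28 and 60.16 TPM, and their promoters differ in letters. DACT1, the gene with the lowest level, is set beside them for contrast. Coordinates are those of GRCh38.p14 in RefSeq, 5′ to 3′ on the strand of the gene, and capitals mark the motifs TGACGTCA (the cyclic AMP response element) and CACGTG (an E-box).
DVL1, chr1:1349419-1349668, minus strand: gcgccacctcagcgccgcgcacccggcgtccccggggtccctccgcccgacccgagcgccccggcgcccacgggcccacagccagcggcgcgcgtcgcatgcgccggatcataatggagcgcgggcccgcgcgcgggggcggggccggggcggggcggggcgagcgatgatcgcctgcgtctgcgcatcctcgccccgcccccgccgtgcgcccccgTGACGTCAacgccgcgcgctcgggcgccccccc
DVL2, chr17:7234518-7234767, minus strand: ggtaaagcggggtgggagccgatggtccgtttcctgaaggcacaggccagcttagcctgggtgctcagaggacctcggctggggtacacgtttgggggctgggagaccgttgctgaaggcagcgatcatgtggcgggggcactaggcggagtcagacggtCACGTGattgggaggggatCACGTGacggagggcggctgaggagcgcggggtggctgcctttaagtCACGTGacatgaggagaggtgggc
DVL3, chr3:184155127-184155376, plus strand: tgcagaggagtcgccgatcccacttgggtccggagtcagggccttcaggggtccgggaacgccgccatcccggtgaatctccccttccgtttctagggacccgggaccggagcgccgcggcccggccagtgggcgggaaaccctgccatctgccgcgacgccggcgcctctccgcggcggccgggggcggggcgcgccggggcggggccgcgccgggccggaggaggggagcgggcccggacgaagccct
DACT1, chr14:58637712-58637961, plus strand: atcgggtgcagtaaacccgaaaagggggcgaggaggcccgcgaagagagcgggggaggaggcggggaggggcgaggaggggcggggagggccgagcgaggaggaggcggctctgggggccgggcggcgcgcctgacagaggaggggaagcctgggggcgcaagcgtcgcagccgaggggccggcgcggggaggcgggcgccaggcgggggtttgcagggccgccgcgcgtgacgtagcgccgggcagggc

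The windows differed in their number of CpG pairs. The DVL1 window held 49 at a GC content of 83.2% and ranked at the 99.8th percentile among 35116 windows of the same length, whose median was 11. The DVL3 window held 36 (95.1st percentile) and the DVL2 window 17 (61.0th percentile). DACT1 has 3 annotated windows with 3, 33 and 24 CpG pairs (22.9th, 91.9th and 76.3rd percentile), of which the one with the most is shown.

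On both strands, the windows were searched for TGACGTCA, for the AP-1 site TGACTCA, for the TCF/LEF sites CTTTGAT and CTTTGAA, and, added after the DVL2 letters were seen, for CACGTG. DVL1 held 1 TGACGTCA that starts 33 bases before the start site, a word found in 1.65% of all windows. DVL2 held 3 copies of CACGTG, 90, 71 and 24 bases before its start site. One or more copies occur in 6.34% of windows, and 3 or more in 28 of them (0.0797%). Of the further windows of the 7 genes, 1 of DAAM2 held TGACGTCA, and 1 of DAAM2 and 1 of DACT1 held CTTTGAA, a word found in 3.8% of windows. The windows of DVL3, DAAM1 and DACT3 held none of these words. A match is a run of letters and does not show that a factor binds there.

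DVL1 was the most abundant of the 7 genes on average, and its group means differed by less than the spread of the libraries. The gene lies on chromosome 1 (GRCh37, 1270656 to 1284798, minus strand) and its canonical transcript has 15 exons. It measured 52.68, 48.08 and 52.25 TPM in shCTL, and 60.16, 46.3 and 44.33 TPM in shRor1. The highest and the lowest libraries were both shRor1 libraries, with the shCTL values in between. The means were 51.0 ± 2.54 TPM in shCTL and 50.3 ± 8.63 TPM in shRor1 (SD, n = 3), a log2 fold change of -0.03 ± 0.12 (SE; adjusted p = 0.987 by limma). The 95% interval allows a shRor1 level between 0.804-fold and 1.19-fold of the control. DVL1 shares 39 exon bases with the taste receptor gene TAS1R3 on the opposite strand, which stayed at 0.18 to 0.28 TPM.

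DVL2 (chromosome 17, 7128661 to 7137836, minus strand, 15 exons) was the steadiest Dishevelled gene within shRor1. It measured 40.61, 44.19 and 49.68 TPM in shCTL, and 42.91, 44.1 and 45.89 TPM in shRor1. All 3 shRor1 values fell inside the range of the shCTL values. The log2 fold change was -0.01 ± 0.09 (SE), with an unadjusted p of 0.894, and the 95% interval runs from 0.856-fold to 1.148-fold.

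DVL3 (chromosome 3, 183873165 to 183891402, plus strand, 15 exons) was the lowest of the 3 paralogs in every library. It measured 28.29, 27.28 and 33.96 TPM in shCTL, and 31.65, 28.11 and 33.39 TPM in shRor1. The highest and the lowest value both belonged to shCTL, so the shRor1 libraries lay inside the control range. The log2 fold change was 0.06 ± 0.11 (SE), with an unadjusted p of 0.614 and a 95% interval from 0.871-fold to 1.245-fold. It was the single tested gene of the 5 with a positive fold change, beside a median of 0.05 over all tested genes, and it was -0.0008 under median ratio scaling, which moves that median to 0.0006.

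**Figure D2:**
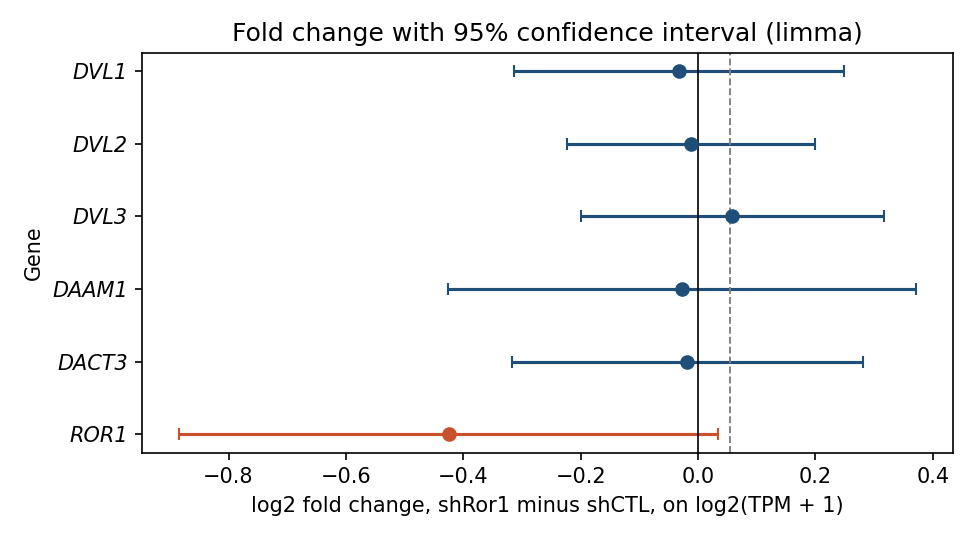
Log2 fold change of shRor1 against shCTL on the log2(TPM + 1) scale, with 95% confidence intervals from limma for the 5 tested genes (blue) and for the targeted gene ROR1 (orange). The dashed line is the median of all 16554 tested genes (0.05), and every interval includes 0.

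The Dishevelled mRNA pool, taken as the sum of the 3 paralogs, did not differ detectably in size or in composition. It came to 121.6, 119.55 and 135.89 TPM in shCTL, and to 134.72, 118.51 and 123.61 TPM in shRor1. The group means were 125.7 ± 8.91 and 125.6 ± 8.29 TPM (SD, n = 3, p = 1.0 in the exact permutation test, two-sided). DVL1 made up 40.7% ± 2.47 of this pool in shCTL and 39.9% ± 4.45 in shRor1 (exact permutation p = 0.9). DVL2 made up 35.6% ± 1.95 and 35.4% ± 3.07 (exact permutation p = 1.0), and DVL3 23.7% ± 1.15 and 24.7% ± 1.97 (exact permutation p = 0.5). The share of DVL1 varied more between libraries of a group, from 35.86% to 44.66% within shRor1, than between the group means.

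**Figure D3:**
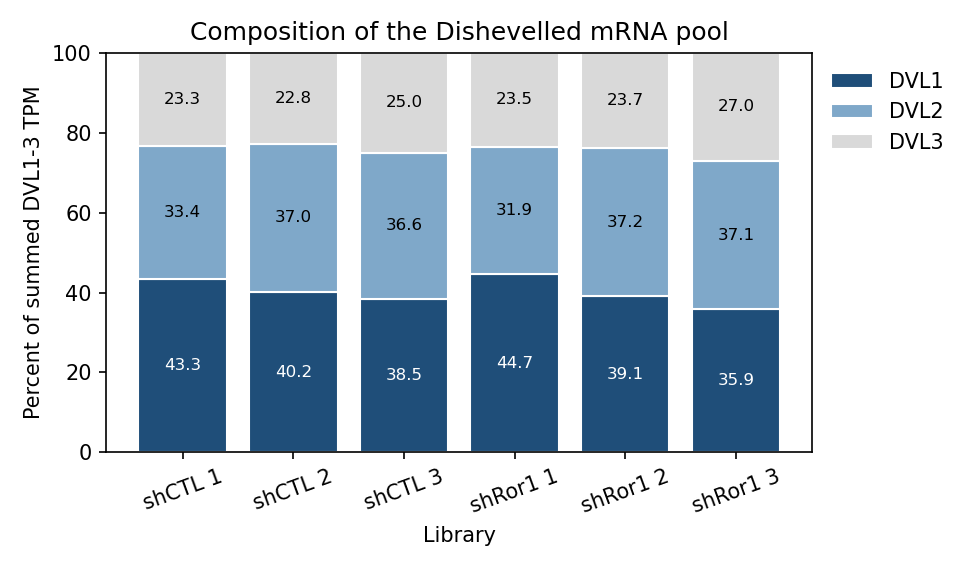
Share of DVL1, DVL2 and DVL3 in their summed TPM (percent), 1 bar per library. DVL1 held 35.9% to 44.7%, DVL2 31.9% to 37.2% and DVL3 22.8% to 27.0% of the pool, with no separation of shCTL from shRor1.

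By their mean over the 6 libraries the genes stood in the order DVL1, DVL2, DVL3, DAAM1, DACT3, DAAM2 and DACT1. Each of the 6 neighbouring pairs was compared within libraries by an exact two-sided permutation test on the sign of the log2 ratio, for which 0.03125 is the smallest p, and p-values were adjusted over the 6 pairs. DVL1 exceeded DVL2 in 5 of 6 libraries by 1.13-fold on average (0.966 to 1.402, exact permutation adjusted p = 0.0625), so these neighbours did not differ beyond their spread. DVL2 exceeded DVL3 in 6 of 6 libraries by 1.47-fold (1.356 to 1.62, exact permutation adjusted p = 0.0375). The other pairs were separated in every library as well, with the same adjusted p. DVL3 was 4.41-fold above DAAM1, DAAM1 4.28-fold above DACT3, and DACT3 2.16-fold above DAAM2. DAAM2 was 11.9-fold above DACT1 (8.4 to 26.67), a ratio that rests on values rounded to 0.01 TPM. Among all tested genes DVL1 ranked at the 79.4th percentile of mean level, DVL2 at the 76.9th, DVL3 at the 68.8th, DAAM1 at the 38.2nd and DACT3 at the 12.0th.

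DAAM1, a formin that binds Dishevelled, was the predominant DAAM gene, and its groups overlapped. The gene spans 59655364 to 59838123 on the plus strand of chromosome 14 and has 25 exons. It measured 6.62, 6.27 and 8.1 TPM in shCTL, and 6.23, 5.72 and 8.8 TPM in shRor1. The third library of each group was the highest, and the remaining 4 lay between 5.72 and 6.62 TPM. The log2 fold change was -0.03 ± 0.17 (SE), with an unadjusted p of 0.877 and a 95% interval from 0.744-fold to 1.293-fold. It was the widest interval of the 5 on log2(TPM + 1). With 0.1 added in place of 1, the SE was 0.190 for DAAM1 and 0.203 for DACT3. Without the third library of both groups the log2 fold change of DAAM1 was -0.09. The part of whatever sets these libraries apart was not tested.

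DAAM2, its paralog (chromosome 6, 39760074 to 39872653, plus strand, 25 exons), measured 0.8, 0.84 and 0.63 TPM in shCTL, and 0.65, 0.7 and 0.89 TPM in shRor1. The highest value was in shRor1 and the lowest in shCTL, and the means were 0.757 ± 0.11 and 0.747 ± 0.13 TPM (SD, n = 3, exact permutation p = 1.0). Its exons overlap those of MOCS1, a gene of molybdenum cofactor synthesis on the opposite strand, by 735 bases, and those of the antisense RNA DAAM2-AS1 by 3162 bases. MOCS1 was at 9.01 to 10.15 TPM in the 6 libraries, against 0.63 to 0.89 TPM for DAAM2. The kit kept the strand, but whether the counting used it is not given in the sources used here, so the DAAM2 level is uncertain. DAAM1 made up 90.1% ± 2.41 of the summed DAAM level in shCTL and 90.2% ± 0.93 in shRor1 (SD, n = 3).

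DACT3, a Wnt antagonist known to be silenced in colorectal cancer, was the most abundant DACT gene, at a low level. It lies on chromosome 19 (47150808 to 47164439, minus strand) and has 4 exons. It measured 1.59, 1.6 and 1.69 TPM in shCTL, and 1.65, 1.36 and 1.79 TPM in shRor1. The shCTL values lay within those of shRor1. The log2 fold change was -0.02 ± 0.13 (SE), with an unadjusted p of 0.892 and a 95% interval from 0.803-fold to 1.215-fold. These limits are ratios of TPM + 1, which at this level are closer together than ratios of TPM. With 0.1 added in place of 1, the log2 fold change was -0.03 ± 0.20 (SE). Of the 50-base words in its transcripts 2.49% also occur in another gene, so that reads of the length used here could be divided there.

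DACT1, a Dishevelled-binding protein with roles in both Wnt branches (chromosome 14, 59100685 to 59115039, plus strand, 4 exons), was close to 0. It measured 0.03, 0.1 and 0.07 TPM in shCTL, and 0.05, 0.08 and 0.07 TPM in shRor1, with the shRor1 values inside the control range. The means were 0.0667 ± 0.035 and 0.0667 ± 0.015 TPM (SD, n = 3, exact permutation p = 1.0). LINC01500 lies on the same strand and shares 378 exon bases and 7.19% of the 50-base words of DACT1. It was listed above 0 in 1 library only, an shCTL library, at 0.06 TPM. With both summed, the exact permutation p was 0.3. DACT2, the remaining gene of the family and not one of the 7, was listed at 0 in all 6 libraries.

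From library to library, 4 of the 5 tested genes shared a feature that DVL1 lacked. DVL2, DVL3, DAAM1 and DACT3 were each higher in the third library of both groups than in the other 4 libraries, as were 23.6% of all tested genes. DVL1 was not, since it was lowest in the third shRor1 library. This feature was counted on TPM as listed. The factors of median ratio scaling were largest in the third libraries, at 1.019 in shCTL and 1.069 in shRor1, against 0.9526 to 1.006 in the others. Dividing by them lowers the third libraries relative to the rest. For DVL2, DVL3 and DACT3 the third libraries then no longer both exceed the other 4, while for DAAM1 they still do. The SD within groups was 0.17 on the log2 scale for DVL1, 0.11 for DVL2, 0.15 for DVL3, 0.24 for DAAM1 and 0.09 for DACT3. Markers of blood and endothelial cells summed over the 6 genes found to 2.08 and 2.7 TPM in the third libraries of shCTL and shRor1, against 0.63 to 1.23 TPM in the others. CDH5, an endothelial cadherin, was at 1.47 and 1.56 TPM there and at 0.32 to 0.54 TPM in the others. Without it the sums were 0.77, 0.71 and 0.61 TPM in shCTL, lowest in the third library, and 0.29, 0.23 and 1.14 TPM in shRor1. VWF, a second endothelial marker, was at 0.19 and 0.21 TPM in the third libraries and at 0.02 to 0.1 TPM in the others. PTPRC and CD14 were highest in the third shRor1 library (0.39 and 0.54 TPM) but not in the third shCTL library (0.16 and 0.26 TPM). CD3E and HBB were at or below 0.1 TPM in every library. The part of such cells in the values above was not tested.

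**Figure D4:**
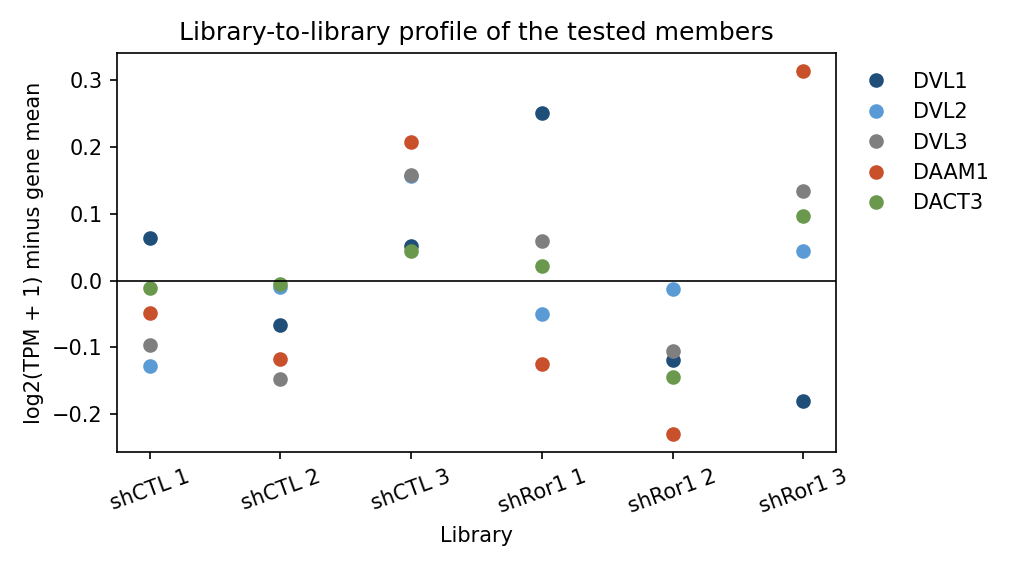
Level of each tested gene in each library as log2(TPM + 1) minus its mean over the 6 libraries. DAAM1 and DVL3 are high in the third library of both groups, while DVL1 is highest in the first and lowest in the third shRor1 library.

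Among 11796 protein-coding genes, the one whose centred log2 profile over the 6 libraries lay nearest to DVL1 was CSK, a kinase that inhibits Src kinases, at a root mean square distance of 0.02. For DVL2 it was HYAL2, a hyaluronidase (0.02), and for DVL3 NCOA6, a nuclear receptor coactivator (0.01). The nearest profile to DAAM1 was CCDC28B (0.03), and to DACT3 ZFAND3 (0.02). These are the closest of many profiles over few libraries and describe likeness only.

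Genes that act on Dishevelled likewise gave no call. Of 42 such genes (kinases, ubiquitin ligases, arrestins and antagonists) 40 were tested, 27 had a positive and 13 a negative log2 fold change, and 0 passed an adjusted p of 0.05 by limma. The positive share was 67.5%, beside 67.0% of all tested genes, and the median was 0.02 against 0.05 over all genes. Other scalings lower all genes together, and 17 regulators were positive and 23 negative under quantile normalization (50.5% of all genes positive) and 15 and 25 under median ratio scaling (50.2%). CSNK1A1, a casein kinase of the β-catenin branch, was at 207.1 TPM in shCTL and 207.8 TPM in shRor1. The casein kinase 2 subunits CSNK2B and CSNK2A1 had log2 fold changes of 0.02 and -0.02. CXXC5, an inhibitor that binds Dishevelled, had the largest fold change of the list, from 12.0 ± 1.93 to 16.0 ± 4.50 TPM (log2 0.36 ± 0.20 (SE), unadjusted p = 0.117 by limma). ARRB2, a β-arrestin, had the most negative one (-0.07). The antagonists NKD1 and NKD2 were at or below 0.13 TPM.

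NEDD4, a ubiquitin ligase, was the single one of the 40 with an unadjusted p under 0.05, beside 2.85% of all tested genes, so that this count is no larger than the background. It measured 124.74, 115.23 and 117.5 TPM in shCTL, and 133.42, 133.85 and 136.75 TPM in shRor1. All shRor1 values lay above all shCTL values. The log2 fold change was 0.18 ± 0.06 (SE), with an unadjusted p of 0.0265, an adjusted p of 0.984 (limma) and an exact permutation p of 0.1, so it did not pass the correction. Under median ratio scaling it was 0.12 with an unadjusted p of 0.151 (limma). The unadjusted p also rose above 0.05 without the second shCTL library (0.107), the third shCTL library (0.0790), the third shRor1 library (0.0673) or the third library of both groups (0.117), and with no mean-variance trend (0.0670). SMURF2, a second ubiquitin ligase, named after its values were seen, did not overlap either, at 134.5 ± 1.30 against 149.2 ± 8.39 TPM (unadjusted p = 0.0638 by limma). These 2 genes make up 5.0% of the 40 tested, beside the 7.78% of all genes whose groups did not overlap.

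Of 12 formins outside the DAAM family 10 were tested, 9 had a positive and 1 a negative log2 fold change, and 0 had an unadjusted p under 0.05 in limma. The positive share was 90.0%, beside 67.0% of all tested genes, and the median was 0.11 against 0.05. Under median ratio scaling 8 were positive and 2 negative, and the median was 0.05 against 0.0006 over all genes. Without the third shRor1 library 6 were positive and 4 negative, beside 58.7% of all genes positive. With any other single library left out, 8 to 10 were positive. DIAPH1, which assembles unbranched actin filaments, was the most abundant at 95.9 TPM in shCTL, with a log2 fold change of -0.01. FMNL1 went from 58.3 to 62.6 TPM, INF2 from 47.1 to 50.1 TPM and FHOD3 from 4.73 to 5.67 TPM on average, none past the threshold. DIAPH2 was the single formin whose groups did not overlap (10.0% of the 10, beside 7.78% of all tested genes), at 5.9, 5.44 and 6.14 TPM against 6.39, 6.61 and 6.8 TPM, with an unadjusted p of 0.179 (limma).

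Of 16 partners of DACT proteins 14 were tested, 8 had a positive and 6 a negative log2 fold change, and 0 had an unadjusted p under 0.05 in limma. The positive share was 57.1%, beside 67.0% of all tested genes, and under median ratio scaling 5 were positive and 9 negative, beside 50.2% of all genes positive. The histone deacetylase genes HDAC1 and HDAC2, had log2 fold changes of -0.02 and 0.09. CTNNB1, which encodes β-catenin, was at 182.5 TPM in shCTL and 190.5 TPM in shRor1. PRKACB, a catalytic subunit of protein kinase A, had the largest positive log2 fold change (0.18, unadjusted p = 0.103 by limma) and ACVR1B, an activin receptor, the most negative (-0.10).

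**Figure D5:**
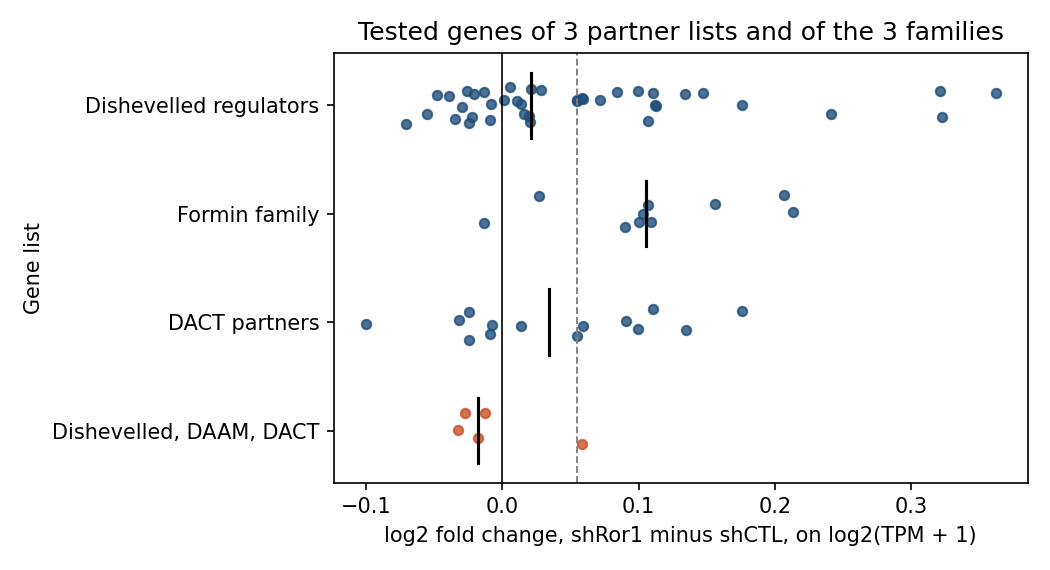
Log2 fold change of each tested gene of 3 lists of partners (blue) and of the 5 tested Dishevelled, DAAM and DACT genes (orange), with a black bar at each median and a dashed line at the median of all tested genes (0.05). The 5 genes lie between -0.03 and 0.06, and 0 of the points shown passed an adjusted p of 0.05 in limma.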

How the data were processed

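RNA of 6 MDA-MB231 libraries was sequenced by the authors as single reads. Per the submitters' processing notes, the tools were CASAVA 1.8.2, FastQC 0.10.0, STAR, RSEM 1.2.5 and edgeR, with the build GRCh37. The deposited values are TPM per gene, estimated by the authors, which keep no depth, so counting intervals and count tests could not be given. Groups came from the labels, and columns named only the group. Of the per-sample columns, 0 were unused. Symbols were matched for 55022 of 57445 identifiers. Gene coordinates came from GENCODE lifted to GRCh37, a later annotation than that of the authors, and promoter windows from RefSeq on GRCh38.p14, a different build.

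The filter required 1 TPM or more in 3 or more libraries, and genes past it were tested on log2(TPM + 1) with limma 3.58.1 (R 4.3.3), with an intensity trend, and adjusted by Benjamini-Hochberg over all of them. This scale understates changes of low genes, and the fold limits given are ratios of TPM + 1. The procedure was tested on simulated data. Single values were compared by exact two-sided permutation tests. The 7 genes and the partner lists were chosen with earlier results of these data known. Beside the 7, the text names ROR1, DACT2, overlapping genes, from each partner list the 3 highest in mean TPM, the most positive and most negative fold change and those with an unadjusted p under 0.05, and for each tested gene the nearest profile among protein-coding genes with an SD of at least 0.05. DIAPH2, SMURF2, NKD1, NKD2 and the markers fall outside this rule or were named after their values were seen. A further list of partners and a marker are not reported here. Alternatives were other filters, pseudocounts, scalings and limma settings, sums with overlapping genes, and libraries left out.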

Additional observations from a re-analysis of the deposited data

How the results depend on the processing

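For DVL1, DVL2, DVL3, DAAM1 and DACT3, each alternative that was run gave an unadjusted p over 0.05 (limma), the lowest being 0.0784 for DVL1 without the first shRor1 library (adjusted p = 0.512, range over its alternatives 0.512 to 1.0). Their fold changes are near 0 and several changed sign, and the cause was not tested. With 1 library left out, log2 fold changes ran from -0.1663 to 0.0498 for DVL1, -0.0797 to 0.0625 for DVL2, -0.0012 to 0.1518 for DVL3, -0.1913 to 0.0809 for DAAM1, -0.0706 to 0.0501 for DACT3 and -0.0515 to 0.0567 for the Dishevelled sum. Differences in share of the pool ran from -3.2 to 1.196 percentage points for DVL1, -1.365 to 1.527 for DVL2 and -0.0864 to 1.698 for DVL3. DVL2 was at 0.0308 with array weights and DVL3 at -0.0008 under median ratio scaling. Leaving out the third library of both groups, chosen after seeing the data, gave 0.0675 for DVL1, 0.0374 for DVL2, 0.0672 for the sum and 0.0885 percentage points for the DVL1 share. Over all genes, 0 to 1 passed an adjusted p of 0.05. The 1 gene was RPL39P3, a ribosomal protein pseudogene, without the third shRor1 library or without the third library of both groups. The count at an unadjusted p under 0.05 was 1363 without a filter, 227 at a mean of at least 5 TPM, 222 among protein-coding genes (both fewer genes tested), 859 with array weights, 1060 with the first component of the residuals added as a covariate (also chosen after seeing the data) and 278 to 1720 with 1 library left out. The highest (10.4% of all tested genes) came without the first shRor1 library, where 5 of 40 Dishevelled regulators, 2 of 10 formins and 2 of 14 DACT partners were among them, while 289 genes were left without the first shCTL library and 278 without the second one. No paired analysis was possible because replicate numbers are missing from the column headers. Sums of DVL1 with copies named after it were not run, since the table holds 0 of them. TPM keeps no depth, so the precision of DAAM2 and DACT1 cannot be given.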
